A study of Capra hircus with 9 samples.

Results

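The miR-15/16 family with miR-195 and miR-497 was followed in the submandibular gland, a salivary gland below the jaw, as goats aged. Its members were taken by name, as every entry of the small RNA count table named miR-15, miR-16, miR-195 or miR-497, whatever letter, arm or ending follows. This rule found 20 of 2189 entries, with 6 named miR-15, 6 named miR-16, 4 named miR-195 and 4 named miR-497. Goat names, which begin with chi-, belong to 12 of them, and the other 8 have no species prefix and end in -x or -y. A filter on low counts kept 18 of the 20 among the 937 entries tested, and chi-miR-497-3p and chi-miR-15a-3p did not pass it. The 9 libraries came from healthy female Lubo goats with no treatment, 3 at 1 month, 3 at 12 months and 3 at 24 months of age, all kept in shared conditions with daylight and unrestricted feed. Each library held total RNA taken with TRIzol from the gland of 1 goat. The 1-month libraries are numbered 1, 2 and 3, the 12-month libraries 3, 4 and 5, and the 24-month libraries 2, 3 and 5, and values of an age are given in that order.

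MicroRNAs of this family bind sites in messenger RNAs through the bases near their 5′ end, called the seed, and members with the same seed share predicted targets. They are known as brakes of the cell cycle, with cyclins, cyclin-dependent kinases and the survival factor BCL2 among their targets in human and mouse cells. They are cut in pairs from shared precursors: miR-15a with a copy of miR-16, miR-15b with another copy of miR-16, and miR-195 with miR-497. Each hairpin can give a 5p and a 3p strand, and the 5p strand carries the family seed.

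The 5p sequences are shown because the seed defines the family and because single bases decide which locus a read is credited to. Capitals mark bases 2 to 8, and the sequences are those of the deposited table, written with T.
chi-miR-15b-5p: tAGCAGCAcatcatggtttaca
chi-miR-16b-5p: tAGCAGCAcgtaaatattgggg
chi-miR-15a-5p: tAGCAGCAcataatggtttgtgg
chi-miR-16a-5p: tAGCAGCAcgtaaatattggag
miR-16-x: tAGCAGCAcgtaaatattggagaa
chi-miR-195-5p: tAGCAGCAcagaaatgttgg
chi-miR-497-5p: aGCAGCACactgtggtttgtac
miR-15-x: tAGCAGCAcggaatggtttgt
miR-195-x: tAGCAGCAcgaaaatattggaa
chi-miR-424-5p: cAGCAGCAattcatgttttga

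The seed AGCAGCA stood at bases 2 to 8 of 12 entries, or 0.548% of the 2189 entries. These were 8 members and 4 entries outside the family by name, chi-miR-424-5p, miR-424-x, miR-457-x and miR-322-x. In chi-miR-497-5p the same letters are shifted by 1 position: its first 9 bases equal bases 2 to 10 of chi-miR-15b-5p, chi-miR-15a-5p and chi-miR-195-5p. Its own bases 2 to 8 therefore read GCAGCAC.

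The 2 goat miR-16 entries are nearly the same molecule. Counted from 1 at the 5′ end, chi-miR-16a-5p and chi-miR-16b-5p differed by A21G alone, with the base of chi-miR-16a-5p given first. The first 20 bases are shared, and how the authors assigned reads ending before base 21 is not given in the sources used here, so the split between these entries is uncertain to that degree. chi-miR-15a-5p and chi-miR-15b-5p differed by A12C, G20A, T21C and G22A over the 22 bases they could be compared on. No member shared its first 18 bases with an entry outside the family.

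The entries with -x and -y endings were compared with the goat-named ones base by base. miR-16-x is the whole of chi-miR-16a-5p with 2 more bases at its 3′ end, miR-15-y the whole of chi-miR-15b-3p with 2 more, and miR-195-y the whole of chi-miR-195-3p with 3 more. miR-15-x differed from chi-miR-15a-5p by A10G and T11G. miR-195-x differed from chi-miR-16a-5p by T11A and G22A, 2 of 22 bases, and from its namesake chi-miR-195-5p by A10G, G11A and G16A, 3 of 20 bases. It is therefore closer in sequence to miR-16 than to miR-195. For the remaining entries only the longest shared run was taken: miR-16-y shared 19 bases with chi-miR-16a-3p and miR-497-y 14 bases with chi-miR-497-3p. The 19 bases run from base 10 of chi-miR-16a-3p to its end at base 28, and are the first 19 of miR-16-y. miR-497-x shared a run of 9 bases with chi-miR-497-5p.

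The 3p strand of the miR-15b hairpin is shown with its longer form because both were among the entries that fell most with age.
chi-miR-15b-3p: cGAATCATtatttgctgctct
miR-15-y: cGAATCATtatttgctgctctat

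In the RefSeq annotation of the goat assembly ARS1.2, used here for the order of genes only, MIR15A lies next to MIR16A. MIR16B lies next to MIR15B, and both sit within SMC4, a gene for a condensin subunit that compacts chromosomes. MIR195 lies next to MIR497, between C19H17orf49 and BCL6B. The goat-named entries were grouped by these 3 clusters, 4 entries in each, and the 8 other names were kept apart.

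Libraries held 8288492 to 13277448 counts. Library 2 at 1 month stood apart: goat-named entries made up 66.6% of its counts, where they made up 79.7% to 83.6% of the counts of every other library. Its log2 levels correlated at 0.927 and 0.915 with the other 1-month libraries, which correlated at 0.987 with each other. Tests against 1 month are therefore given also without it for each member named with a fold change. The tissue label was checked against miRNAs of glands (miR-148, miR-375, miR-7, miR-216 and miR-217) and of epithelia (miR-200, miR-141, miR-429, miR-203, miR-205, miR-183, miR-96 and miR-182). The gland list made up 1.41% to 8.55% of the 1-month libraries, 14.2% to 16.8% of the 12-month libraries and 16.9% to 17.9% of the 24-month libraries, with chi-miR-216b and chi-miR-217-3p at 0 in at least 1 library. The epithelial list took 0.875% to 5.82%, 10.3% to 11.9% and 10.7% to 11.8% at these ages, with its 8 goat-named members above 0 in every library. The lowest gland and epithelial shares were both those of 1-month library 2. Entries of the gland list did not all follow its share. By the edgeR tests given below, 3 of its 11 tested entries were higher and 1 lower at 12 months against 1 month. The median log2 fold change was 0.25, and 5 of the 11 values were below 0. At 24 months 4 were higher and 0 lower, with a median of 0.59. Of all entries 5.98% and 8.75% were higher. Without library 2, 5 were higher and 2 lower at 12 months, and 5 and 0 at 24 months.

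Together the 20 entries took 1.71%, 4.87% and 1.43% of counts in the 1-month libraries, 0.737%, 0.693% and 0.745% in the 12-month libraries, and 0.887%, 0.490% and 0.633% in the 24-month libraries. Every 1-month library thus lay above every later one, and the highest was library 2. Means were 2.67 ± 1.91%, 0.725 ± 0.028% and 0.670 ± 0.201% (SD, n = 3 each). The widest Wilson 95% interval of a family share reached 0.012 percentage points to each side, and intervals and floors here cover counting error only. The share of a library is relative, since it moves also when other miRNAs move.

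Levels below are CPM, the usual scaled count, over library totals corrected by TMM, a factor that lines up the bulk of entries between libraries. chi-miR-16a-5p was the highest member at every age and ranked at 27 among all entries by its mean over the 9 libraries. At 1 month chi-miR-16b-5p, chi-miR-15b-5p and miR-16-x came next, with means of 3889.5, 2924 and 2224 CPM and ranges that overlapped from each to the next. At 12 months the order was chi-miR-16a-5p, miR-16-x, chi-miR-16b-5p, chi-miR-15b-5p, chi-miR-497-5p and chi-miR-15a-5p, and no neighbours in it overlapped. The same order, again with no overlap, was found at 24 months. chi-miR-15b-5p thus stood above chi-miR-497-5p by 8.404 to 138.2 times in the 1-month libraries, and by 1.08 to 1.97 times in the 12-month and 1.14 to 1.77 times in the 24-month ones.

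The pair miR-15b and miR-16b, with both strands of each, fell between 1 month and the later ages. chi-miR-15b-5p stood at 1692, 6069 and 1010.0 CPM at 1 month, at 215.8, 197.2 and 169.5 CPM at 12 months, and at 170.5, 157.5 and 154 CPM at 24 months. All 3 young goats lay well above all 6 older ones, and library 2 was the highest. The log2 fold change was −3.91 (SE 0.62, adjusted p = 0.0025) for 12 months against 1 month and −4.19 (SE 0.63, adjusted p = 0.00192) for 24 months against 1 month. These tests are edgeR quasi-likelihood F tests with Benjamini-Hochberg adjustment over the 937 entries, and an entry is said to have passed at an adjusted p under 0.05. Without 1-month library 2 the falls were smaller by over 1.5 times in fold, at −2.82 (adjusted p = 0.00013) and −3.09 (adjusted p = 7.1e-05), and still passed.

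chi-miR-16b-5p, the miR-16 copy beside miR-15b, had the same pattern at a higher level. It stood at 2359, 7448 and 1862 CPM at 1 month, at 572, 478 and 617 CPM at 12 months, and at 612, 418 and 564 CPM at 24 months. The lowest young goat lay above the highest older goat. The log2 fold change was −2.81 (SE 0.52, adjusted p = 0.00497) at 12 months and −2.87 (SE 0.52, adjusted p = 0.00446) at 24 months, each against 1 month. Leaving out 1-month library 2 gave −1.95 (adjusted p = 0.000539) and −2.01 (adjusted p = 0.000519).

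The 3p strands of the pair fell too. chi-miR-15b-3p, printed above, stood at 42.6, 233 and 30.4 CPM at 1 month, at 6.18, 7.15 and 5.39 CPM at 12 months, and at 3.66, 6.71 and 5.41 CPM at 24 months. Its log2 fold change was −4.03 at 12 months and −4.27 at 24 months against 1 month (adjusted p = 0.00524 and 0.00422), and −2.57 and −2.81 without library 2. chi-miR-16b-3p stood at 10.7 to 42.6 CPM at 1 month, 3.48 to 4.05 CPM at 12 months and 2.89 to 5.53 CPM at 24 months. Its log2 fold change was −2.59 and −2.47 against 1 month (adjusted p = 0.0123 in both), and −1.74 and −1.61 without library 2. For both strands the 1-month libraries did not overlap those of the later ages, which overlapped each other. Each of these 4 entries passed in both comparisons under every fit that left out 1 of the 9 libraries.

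**Figure D1:**
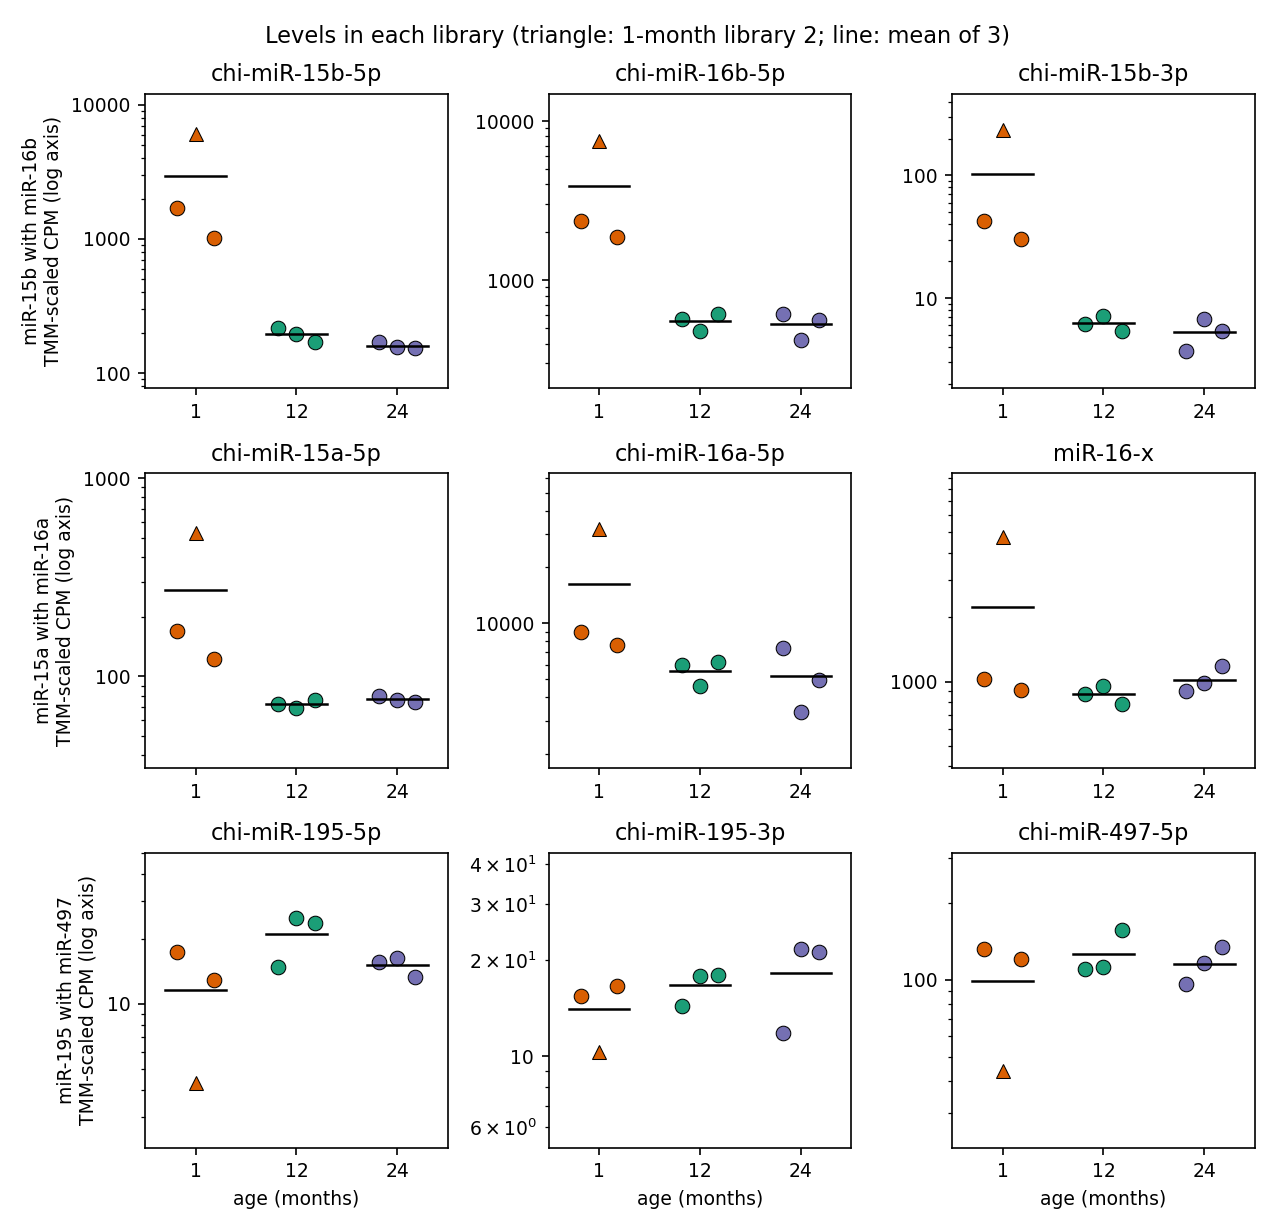
Level of 9 members in each library (TMM-scaled CPM, log axis) by age in months, with a triangle for 1-month library 2 and a line at the mean of 3 libraries. Rows follow the genomic clusters, with the longer form miR-16-x placed beside chi-miR-16a-5p. In the top row the 1-month libraries lie above all later ones, as chi-miR-15b-5p does with at most 215.8 CPM later and at least 1010.0 CPM at 1 month, while in the bottom row the ages overlap.

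The goat-named entries of the pair miR-15a and miR-16a moved less. chi-miR-15a-5p stood at 169, 529.6 and 122 CPM at 1 month, at 72.6, 69.0 and 76.4 CPM at 12 months, and at 79.8, 75.7 and 74.7 CPM at 24 months. The 6 older goats lay within a narrow band, and each young goat lay above it. Its log2 fold change was −1.91 (SE 0.51, adjusted p = 0.0266) at 12 months and −1.83 (SE 0.51, adjusted p = 0.0263) at 24 months against 1 month. Leaving out 1-month library 2 gave −1.02 (adjusted p = 0.016) and −0.94 (adjusted p = 0.02). The call at 12 months was lost without 12-month library 4 (adjusted p = 0.087), and that at 24 months without 24-month library 3 or 5 (adjusted p = 0.0734 and 0.0557).

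chi-miR-16a-5p, the most abundant member, did not give a stable call. It stood at 8935, 31959 and 7606 CPM at 1 month, at 5951, 4591 and 6192 CPM at 12 months, and at 7337, 3342 and 4939 CPM at 24 months. The 1-month libraries did not overlap those of the later ages, which overlapped each other, but 1-month library 3 and 24-month library 2 lay close together. The log2 fold change was −1.54 (SE 0.55, adjusted p = 0.0631) at 12 months and −1.63 (SE 0.55, adjusted p = 0.0487) at 24 months against 1 month. Without 1-month library 2 it was −0.59 (adjusted p = 0.181) and −0.69 (adjusted p = 0.118). The call at 24 months was lost in 7 of the 9 fits that left out 1 library, those without 1-month library 2, any 12-month library or any 24-month library, with adjusted p from 0.0528 to 0.149. The 12-month value passed without 1-month library 1 or 3, or without 24-month library 2 or 3 (adjusted p = 0.0444, 0.0357, 0.0423 and 0.0475). With all libraries it passed also by DESeq2 (adjusted p = 0.0225), with library size alone (0.04) and with no filter (0.0047). The 24-month call was lost with limma voom (0.0716), upper-quartile scaling (0.062), libraries of both ages only (0.0753) and goat-named entries only (0.0611).

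The longer form miR-16-x gave no edgeR call in either comparison with all libraries and the filter on low counts. It stood at 1029, 4731 and 912 CPM at 1 month, at 879, 955 and 786 CPM at 12 months, and at 898, 981 and 1185 CPM at 24 months. Apart from 1-month library 2, the young and older goats overlapped. Its log2 fold change against 1 month was −1.35 (adjusted p = 0.0998) at 12 months and −1.12 (adjusted p = 0.156) at 24 months, and without library 2 it was −0.18 and 0.05. Among the fits that left out 1 library, it passed at 12 months without 1-month library 3 (adjusted p = 0.0498). With no filter it passed in both comparisons (adjusted p = 0.0142 and 0.0366). When chi-miR-16a-5p, chi-miR-16b-5p and miR-16-x were summed, as entries with the same first 18 bases, the sum fell by 1.76 on the log2 scale (SE 0.52, adjusted p = 0.0409) at 12 months. At 24 months against 1 month it fell by 1.79 (SE 0.52, adjusted p = 0.0335).

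chi-miR-16a-3p, the other strand of that hairpin, was low, at 5.86 to 14.6 CPM at 1 month, 4.48 to 5.02 CPM at 12 months and 2.12 to 5.80 CPM at 24 months. It did not pass, with log2 fold changes of −0.90 and −1.17 against 1 month (adjusted p = 0.217 and 0.117), and of −0.35 and −0.61 without library 2. miR-16-y, which begins with the last 19 bases of chi-miR-16a-3p, was kept among the other names. By edgeR its log2 fold change was −2.83 (adjusted p = 0.0207) at 12 months and −1.88 (adjusted p = 0.0597) at 24 months against 1 month, as given below. chi-miR-15a-3p had 2, 16 and 4 counts at 1 month, 0 counts in the 12-month libraries, and 0, 2 and 0 counts at 24 months, and was not tested. A count of 0 allows up to 3 counts in a library.

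No entry of the pair miR-195 and miR-497 passed in any comparison. chi-miR-497-5p stood at 132, 43.9 and 120.2 CPM at 1 month, at 109.7, 112 and 157 CPM at 12 months, and at 96.3, 116 and 135 CPM at 24 months. The ages overlapped, and 1-month library 2, the highest library for the other pairs, was the lowest here. The log2 fold change against 1 month was 0.35 (SE 0.43, adjusted p = 0.557) at 12 months and 0.23 (SE 0.43, adjusted p = 0.737) at 24 months. It was −0.02 and −0.14 without library 2, and −0.10 at 24 months when libraries were scaled by their totals alone.

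chi-miR-195-5p stood at 17.4, 4.30 and 12.9 CPM at 1 month, at 14.8, 25.1 and 23.6 CPM at 12 months, and at 15.6, 16.4 and 13.4 CPM at 24 months. Its log2 fold change against 1 month was 0.87 (SE 0.50, adjusted p = 0.209) at 12 months and 0.39 (SE 0.50, adjusted p = 0.594) at 24 months, and 0.46 and −0.03 without library 2. chi-miR-195-3p stood at 10.3 to 16.6 CPM, 14.4 to 18.05 CPM and 11.9 to 21.7 CPM at 1, 12 and 24 months, with log2 fold changes of 0.25 and 0.37 against 1 month (adjusted p = 0.655 and 0.508), and of 0.04 and 0.17 without library 2. The ages overlapped for both strands. A p that misses the threshold does not show that these levels were equal, and the SE of these differences was 0.39 to 0.50 on the log2 scale.

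chi-miR-497-3p had 289 counts (30.8 CPM) in 12-month library 4 and 0 counts in each of the other 8 libraries. It was the only entry of the 2189 with at least 100 counts in 1 library and none elsewhere. Its partner strand chi-miR-497-5p did not stand out in that library, at 112 CPM.

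The remaining entries with other names were low. miR-15-y, the longer form of chi-miR-15b-3p, had 64, 201 and 31 counts at 1 month, 0, 3 and 3 counts at 12 months, and 0, 6 and 3 counts at 24 months. It passed in both comparisons (adjusted p = 0.0137 and 0.017), and its fitted log2 fold changes of −5.17 and −4.50 rest on few counts. Leaving out 1-month library 2 gave −4.11 and −3.44 (adjusted p = 0.0274 and 0.0399). The call at 24 months was lost without 24-month library 5 (adjusted p = 0.0533). miR-16-y stood at 3.81 to 17.02 CPM at 1 month, 0.901 to 1.89 CPM at 12 months and 0.964 to 4.21 CPM at 24 months. It passed at 12 months against 1 month (log2 fold change −2.83, adjusted p = 0.0207) but not without 12-month library 3 or 4 (adjusted p = 0.052 and 0.0767), and stood at −2.14 (adjusted p = 0.0387) without 1-month library 2. At 24 months its log2 fold change was −1.88 (adjusted p = 0.0597), and it passed without 1-month library 3 (adjusted p = 0.0381). That 24-month value was −1.18 without 1-month library 2, and with all libraries it passed by DESeq2 (adjusted p = 0.0247), library size alone (0.0387) and no filter (0.0155).

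miR-15-x was carried by 1 library at each of the first ages. It stood at 23.1, 248 and 10.1 CPM at 1 month, at 10.8, 75.1 and 4.49 CPM at 12 months, and at 5.40, 13.5 and 8.75 CPM at 24 months. By edgeR with all libraries it did not pass in any comparison, and its log2 fold change for 12 months against 1 month was −1.64, but 0.84 without 1-month library 2. At 24 months against 1 month it was −3.34 (adjusted p = 0.0721), and it passed without 12-month library 4 (adjusted p = 0.0466), with libraries of both ages only (0.0466) and by DESeq2 (−3.47, adjusted p = 0.00556). This value was −0.86 without 1-month library 2. miR-195-x stood at 1.88, 28.3 and 3.39 CPM, at 4.12, 8.0 and 4.76 CPM, and at 5.88, 9.78 and 7.83 CPM at 1, 12 and 24 months. It did not pass with all libraries, at −0.99 and −0.52 against 1 month, and at 12 months stood at 1.06 without 1-month library 2. Once 1-month library 2 was left out, it was higher at 24 months against 1 month, at 1.53 (adjusted p = 0.0381). miR-195-y, miR-497-x and miR-497-y reached at most 5.57 CPM in any library and did not pass.

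Of the 18 members tested, 7 were lower at 12 months than at 1 month and 0 were higher, where 13.2% of all 937 entries were lower and 5.98% higher, 19.2% in either direction. Those were the 4 entries of the miR-15b pair, chi-miR-15a-5p, miR-16-y and miR-15-y. At 24 months against 1 month, 7 were lower and 0 higher, where 17.5% of all entries were lower and 8.75% higher, 26.3% in either direction. Here chi-miR-16a-5p passed in place of miR-16-y. Both comparisons share the 1-month libraries. Levels of the later and earlier age did not overlap for 9 of the 18 members at 12 months and 9 at 24 months, near the 48.5% and 47.2% of all entries.

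By cluster, 4 of 4 tested entries of the miR-15b pair were lower at 12 months against 1 month, with a median log2 fold change of −3.36. Of the miR-15a pair 1 of 3 was lower, with a median of −1.54, and miR-16-y was not counted there but among the other names. Of the miR-195 pair 0 of 3 were lower or higher, with a median of 0.35, and of the 8 other names 2 were lower. At 24 months against 1 month the counts were 4 of 4, 2 of 3, 0 of 3 and 1 of 8, and the cluster medians were −3.53, −1.63 and 0.37. The median over the 18 members was −1.44 at 12 months and −1.40 at 24 months, beside −0.02 and −0.06 over all entries tested. Without 1-month library 2, 7 members were lower at 12 months, and 6 were lower and 1 higher at 24 months, where 22.5% and 26.4% of all 967 entries in that fit were called in either direction. The medians over the 18 then stood at −0.26 and −0.65, and those of the miR-15b pair at −2.26 and −2.41. Differences between the clusters in their falls were not tested.

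**Figure D2:**
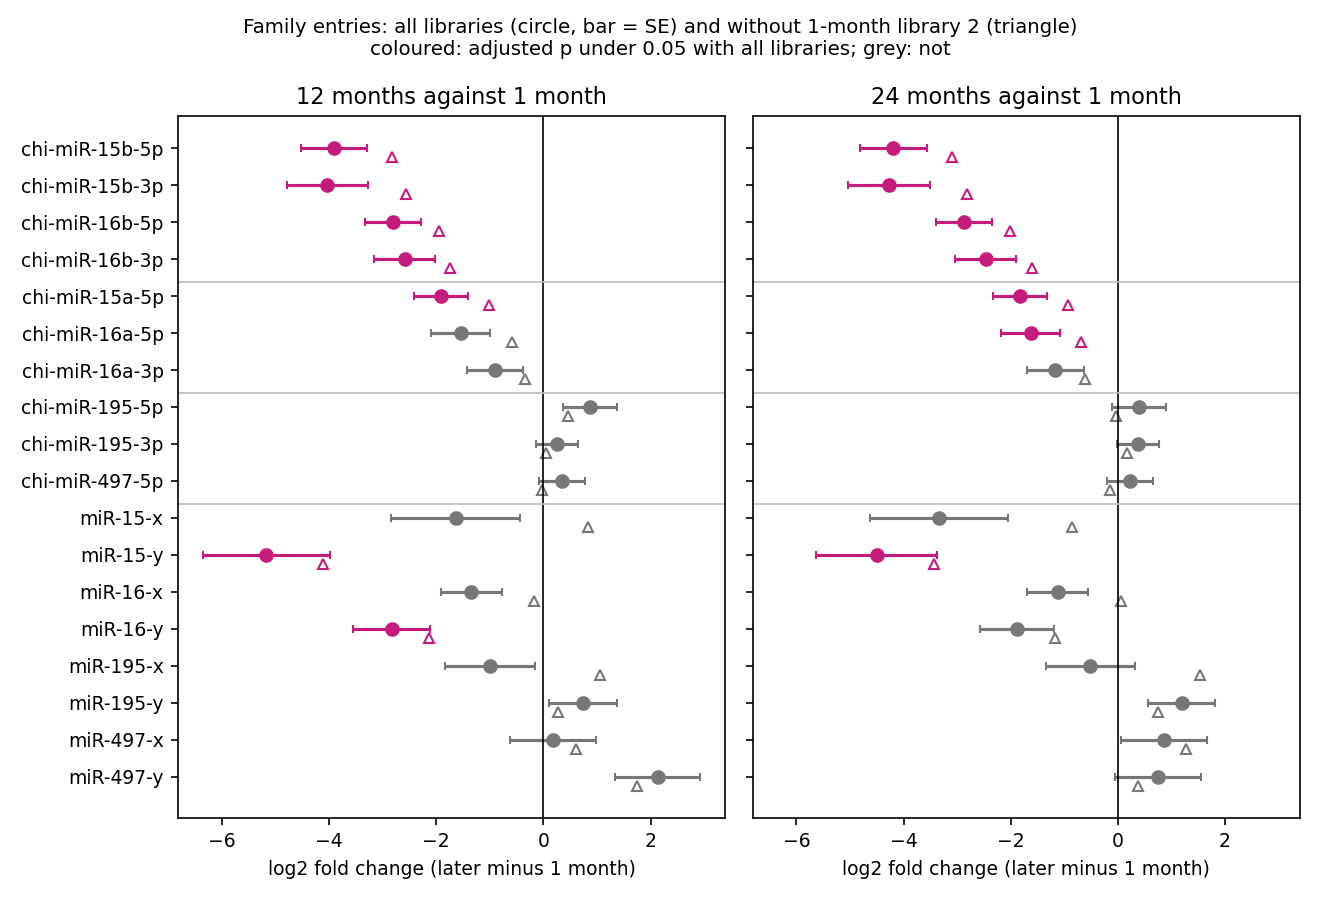
Log2 fold change of the 18 tested members at 12 months against 1 month (left) and 24 months against 1 month (right), with all libraries (circle, bar of 1 SE) and without 1-month library 2 (triangle); colour marks an adjusted p under 0.05 with all libraries. The 4 entries of the miR-15b pair lie at the top, from −2.47 to −4.27, and the 3 of the miR-195 pair lie above 0 with all libraries, from 0.23 to 0.87.

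Between 12 and 24 months no member moved past the threshold. edgeR called 0 of the 18, and 0 had an unadjusted p under 0.05; DESeq2 and limma voom called 0 as well. Among all 937 entries 0.0% were called, with 40 at an unadjusted p under 0.05. The log2 fold changes of the members ran from −1.71 for miR-15-x to 0.96 for miR-16-y, with an adjusted p of 0.998 for each. No member had ages that did not overlap, where 9.82% of all entries did. For chi-miR-15b-5p the value was −0.27 (SE 0.55), for chi-miR-16b-5p −0.07 (SE 0.49) and for chi-miR-16a-5p −0.10 (SE 0.53).

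Ratios within a library do not depend on how libraries are scaled, and they are given as descriptions with no test. The ratio of chi-miR-16a-5p to chi-miR-16b-5p counts was 3.79, 4.29 and 4.08 in the 1-month libraries, 10.4, 9.603 and 10.03 in the 12-month libraries, and 12, 7.998 and 8.75 in the 24-month libraries. Library 2 at 1 month, far from its group in level, lay with its group in this ratio. The ratio of chi-miR-15b-5p to chi-miR-15a-5p was 10.04, 11.5 and 8.28 in the 1-month libraries, 2.97, 2.86 and 2.22 in the 12-month libraries, and 2.14, 2.08 and 2.06 in the 24-month libraries. In both ratios the 1-month libraries did not overlap the later ones, and both put the miR-15b pair higher relative to the miR-15a pair in young goats.

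Within the miR-15b pair the partners also parted. The ratio of chi-miR-16b-5p to chi-miR-15b-5p was 1.39, 1.23 and 1.84 in the 1-month libraries, 2.65, 2.42 and 3.64 in the 12-month libraries, and 3.59, 2.65 and 3.66 in the 24-month libraries, with no overlap between 1 month and the later ages. The strands of the miR-15b hairpin kept closer: chi-miR-15b-5p outnumbered chi-miR-15b-3p by 26.1 to 39.8 times at 1 month, 27.6 to 34.9 times at 12 months and 23.5 to 46.6 times at 24 months. These strand ratios overlapped at all ages. For chi-miR-16b the 5p strand outnumbered the 3p strand by 139 to 219.9 times, 118 to 176 times and 102 to 212 times. miR-195 differed, with its strands at similar counts and a 5p to 3p ratio of 0.415 to 1.41 over the 9 libraries.

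**Figure D3:**
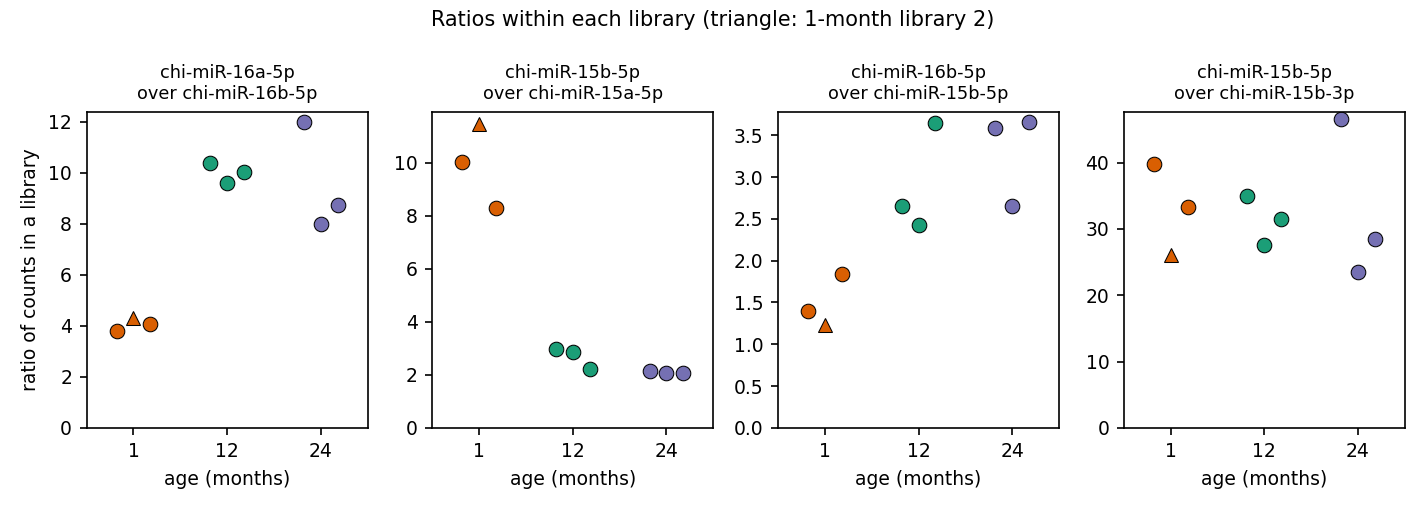
Ratios of counts within each library by age in months, with a triangle for 1-month library 2 and axes from 0. The ratio of chi-miR-16a-5p to chi-miR-16b-5p is 7.998 to 12 at the later ages and 3.79 to 4.29 at 1 month, that of chi-miR-15b-5p to chi-miR-15a-5p is 2.06 to 2.97 at the later ages and 8.28 to 11.5 at 1 month, and the strand ratio at the right overlaps between ages.

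The make-up of the family followed these ratios. The miR-15b pair held 28.4%, 26.8% and 24.8% of the family's counts in the 1-month libraries, 10.1%, 10.4% and 9.85% in the 12-month libraries, and 8.53%, 11.3% and 10.2% in the 24-month libraries. The 1-month libraries lay together here, library 2 among them. The miR-15a pair held a mean of 64.1%, 75.1% and 72.2% at 1, 12 and 24 months, and the miR-195 pair 0.843%, 2.35% and 2.23%. For the miR-15a pair, 24-month library 3 (66.05%) lay close to 1-month library 3 (65.91%). The miR-195 pair held 1.14%, 0.114% and 1.28% in the 1-month libraries, so library 2 lowered that mean. Its share in 12-month library 4 (2.82%) includes 0.468% from chi-miR-497-3p. miR-16-x held 7.12% to 9.21% in the 1-month, 9.73% to 14.5% in the 12-month and 9.72% to 18.9% in the 24-month libraries.

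**Figure D4:**
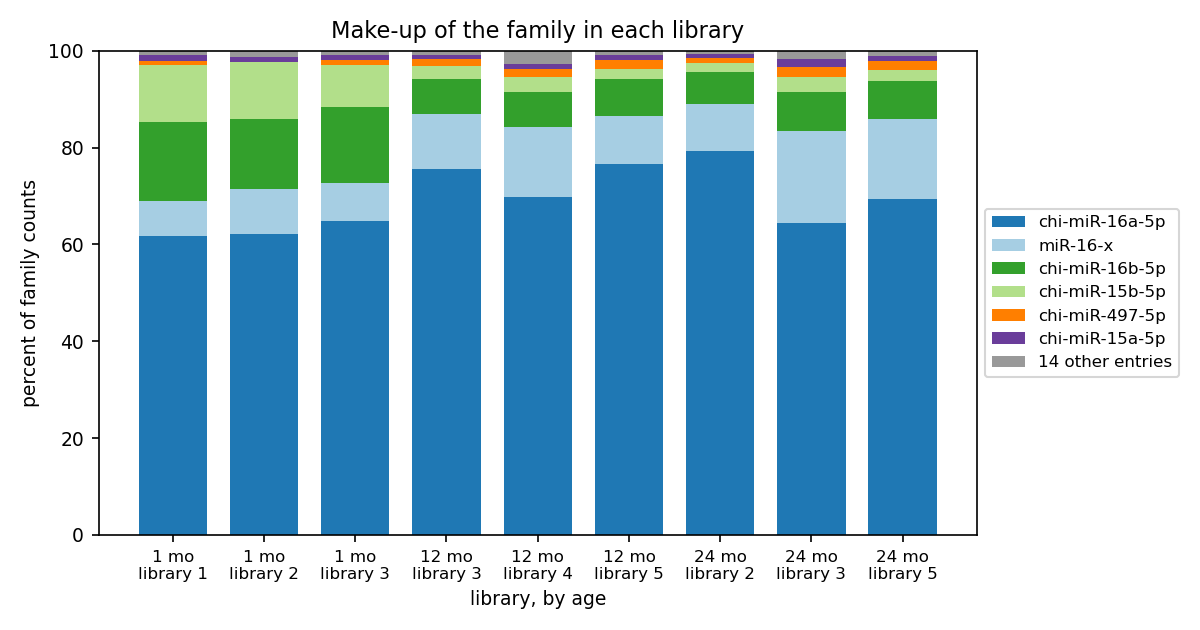
Percent of the family's counts taken by each entry in each of the 9 libraries, stacked to 100, with the 14 least abundant entries joined in grey. chi-miR-16b-5p and chi-miR-15b-5p (greens) take 6.62% to 8.06% and 1.84% to 3.04% at the later ages, and 14.5% to 16.3% and 8.61% to 11.8% at 1 month.

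Markers of other cells differed in how they moved with age in the same libraries. A leukocyte list (miR-142, miR-150, miR-155, miR-223, miR-146 and miR-342, with 22 entries) took 3.73%, 12.7% and 5.78% of counts in the 1-month libraries, 0.712%, 0.639% and 0.604% in the 12-month libraries, and 0.617%, 0.486% and 0.477% in the 24-month libraries. Among goat-named counts alone the fall was smaller. Goat-named leukocyte entries took 1.49%, 2.88% and 2.155% of these at 1 month. They took 0.667%, 0.4998% and 0.5605% at 12 months, and 0.575%, 0.447% and 0.4195% at 24 months. Of the 16 tested entries of the list, 12 were lower at 12 months and 14 at 24 months against 1 month, and 0 were higher. Over all 937 entries 13.2% and 17.5% were lower. chi-miR-223-5p and chi-miR-155-3p were at 0 in at least 1 library. A red cell list (miR-144, miR-451 and miR-486) had 0 of 7 called at 12 months and 2 lower at 24 months. An endothelial list (miR-126) had 0 of 4 called and then 1 higher. In both comparisons smooth muscle (miR-143 and miR-145) had 1 of 8 higher. Its share was 0.762% in 1-month library 2 and 5.09% to 8.63% in every other library. Without library 2, 3 of 8 were higher at 12 months and 4 at 24 months, beside 84 and 111 of all 967 entries in that fit. Skeletal and heart muscle (miR-1, miR-133, miR-206 and miR-499) had 2 of 9 higher in both comparisons. With all libraries, 19.2% and 26.3% of all entries were called in either direction. The skeletal and heart muscle list took 0.247% of counts in 12-month library 4 and 0.015% to 0.061% in every other library. Without that library 0 of 9 were higher and 1 lower at 12 months, where 8.3% of all entries were called. The median log2 fold change was then −0.63, beside 1.42 with all libraries. The leukocyte share was highest, and the epithelial and gland shares lowest, in 1-month library 2, where chi-miR-15b-5p, chi-miR-16b-5p, chi-miR-15a-5p and chi-miR-16a-5p were highest and chi-miR-497-5p lowest. In bulk tissue, fewer cells of a type and less RNA per cell cannot be told apart, and the part of the leukocyte share in the falls of the family was not tested. Without library 2 the leukocyte list still had 11 of 16 entries lower in each comparison.

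**Figure D5:**
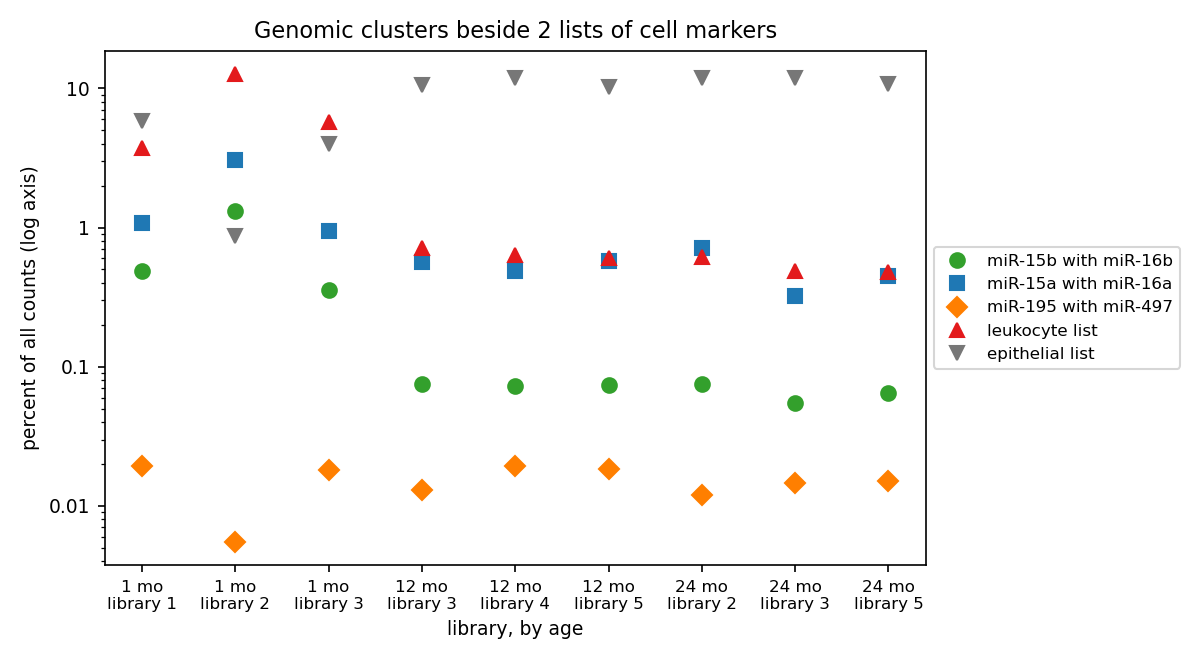
Percent of all counts (log axis) taken by the 3 genomic clusters, the leukocyte list and the epithelial list in each library. From 1 month to the later ages the leukocyte list and the miR-15b pair are lower and the epithelial list is higher, while the miR-195 pair stays between 0.00554% and 0.0195%.

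No tested entry that shares the seed but not the name passed by edgeR with all libraries. chi-miR-424-5p, cut from an X-linked cluster in human and printed above with the family, stood at 219.9, 26.1 and 190.4 CPM at 1 month, at 238, 267 and 230.1 CPM at 12 months, and at 325, 472.5 and 314 CPM at 24 months. Its log2 fold change was 0.75 (adjusted p = 0.365) at 12 months and 1.35 (adjusted p = 0.117) at 24 months against 1 month. Without 1-month library 2 these were 0.23 and 0.83 (adjusted p = 0.511 and 0.0399). At 12 and 24 months its mean lay above that of chi-miR-15b-5p, which had been the higher at 1 month. miR-424-x and miR-457-x were tested and did not pass, and miR-322-x was too low to test. Of the 7 tested entries named miR-424, miR-322 or miR-503, 0 passed in either comparison against 1 month, where 19.2% and 26.3% of all entries did. Without 1-month library 2, 1 of 8 was higher at 24 months, beside 111 of all 967 entries in that fit.

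Other miRNAs tied to the cell cycle were counted beside the family, against the 19.2% of all entries called in either direction at 12 months and the 26.3% at 24 months. miRNAs of the miR-17-92 cluster and its sister clusters, known to promote division, had 29 of 34 tested entries lower and 0 higher in both comparisons against 1 month, with median log2 fold changes of −2.47 and −2.53. Over all entries 13.2% and 17.5% were lower. Once 1-month library 2 was left out, 26 of 34 were lower at 12 months and 25 at 24 months, with medians of −1.50 and −1.61. The let-7 miRNAs together with miR-98, which accumulate as cells differentiate, had 1 of 23 higher and 1 lower at 12 months, below that share. At 24 months 4 of the 23 were higher and 2 lower, close to the share of all entries. With that library left out the let-7 counts were 2 higher and 1 lower at 12 months, and 5 higher and 2 lower at 24 months. In that fit 22.5% and 26.4% of all entries were called in either direction. miR-34, which p53 switches on in mammalian cells, and its seed relative miR-449 had 0 of 6 higher or lower in both, and 0 of 7 without the library.

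The goat-named miRNAs most like 3 of the members were taken by Pearson correlation of log2(CPM + 1) over the 9 libraries, among those with a mean of at least 100 CPM. These values are a description with no p, since the 9 points share 3 ages and 1-month library 2. For chi-miR-15b-5p they were chi-miR-181b-5p, chi-miR-128-3p, chi-miR-17-5p, chi-miR-20a-5p and chi-miR-93-5p, at 0.984 to 0.991, and without library 2 at 0.964 to 0.980. For chi-miR-16b-5p they were chi-miR-128-3p, chi-miR-181b-5p, chi-miR-92b, chi-miR-92a-3p and chi-miR-25-3p, at 0.987 to 0.996, and at 0.968 to 0.992 without it. For chi-miR-497-5p they were chi-miR-125b-3p, chi-miR-143-3p, chi-miR-429, chi-miR-99a-5p and chi-miR-143-5p, at 0.890 to 0.953. Those fell to between −0.00797 and 0.661 without library 2, so this likeness rested on that library.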

How the data were processed

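Small RNA of 9 goat submandibular glands was analysed from 1 table that the authors deposited, which holds whole-number read counts per miRNA entry and library, per the file headers. Per the submitters' processing notes FastQC and Bowtie were used, with no role or version stated. What is not given in the sources used here is the genome build, the miRNA database release and how reads that match several entries were assigned. The table holds 2189 entries, and no per-library column was left out. Library totals of 8288492 to 13277448 counts set the precision.

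The edgeR filter on low counts (filterByExpr with a minimum count of 10 and a minimum total of 15) left 937 entries. All 9 libraries were fitted together by age in edgeR 4.0.16 (R 4.3.3) with TMM factors and the quasi-likelihood F test in its robust form. The fit had 6 residual degrees of freedom and a biological coefficient of variation of 0.534. Benjamini-Hochberg adjustment ran over all 937 entries within a comparison, at a threshold of 0.05. The SE is the log2 fold change over the square root of F. Without TMM factors the median log2 fold change of all entries stood at −0.20 for 12 months and −0.36 for 24 months against 1 month, beside −0.02 and −0.06 with them, and 26 of 181 and 46 of 239 calls were higher, beside 56 of 180 and 82 of 246. With upper-quartile scaling 132 of 285 calls at 24 months were higher.

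Members and marker lists were chosen with earlier results of these data known. Each tested member is named, those with a mean of at least 100 CPM at 1 age in every library. The 20 alternatives were other scalings, no filter or a stricter one (50 counts in 3 libraries), DESeq2 1.42.0, limma voom 3.58.1, libraries of both ages only, summing entries with the same first 18 bases, goat-named entries only, a replicate block, and leaving out each library. Marker lists were described by shares and counts only.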

Additional observations from a re-analysis of the deposited data

How the results depend on the processing

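Each of the 3 comparisons was repeated under 11 other settings and 9 fits that left out 1 library each. Outside those 9 and the block, 5 to 9 members were lower at 12 months against 1 month and 5 to 9 at 24 months against 1 month. In the same fits 12.0% to 30.4% and 13.2% to 38.2% of all entries were called in either direction, the least with no filter and the most by DESeq2. The member counts are not all out of 18. The fits held 10 members with goat-named entries only, 14 with the stricter filter or with entries summed, and 20 with no filter. With libraries of both ages only, 17 were held at 24 months against 1 month. Leaving out 1 library gave 5 to 9 and 4 to 8 calls, and 0 to 0 for 24 months against 12 months. Of all entries in those fits, 8.3% to 22.5%, 11.5% to 26.4% and 0.0% to 0.201% were called. The 4 member calls came without 24-month library 5, where chi-miR-16a-5p, chi-miR-15a-5p and miR-15-y were lost. The animals differ between ages, so a shared number pairs no goats, and deviations of same-numbered libraries correlated at −0.212 to 0.178. With the number as a replicate block, which leaves 2 residual degrees of freedom, 0 members passed at 12 months and 3 at 24 months against 1 month, of 4 and 71 entries called. Under that block the 12-month log2 fold changes of chi-miR-195-3p and miR-497-x turned to −0.15 and −1.34, and the values for 24 months against 12 months of chi-miR-15a-5p, chi-miR-497-5p and miR-15-x to −0.22, 0.10 and 0.09. With libraries of both ages only, chi-miR-195-3p turned to −0.05 and miR-497-x to −0.09 at 12 months. With no filter, miR-497-x turned to −0.04 at 12 months and chi-miR-497-5p to −0.02 at 24 months. For chi-miR-497-5p at 24 months, library size alone gave −0.10. With limma voom, miR-195-x turned to 0.43 at 24 months. Between 24 and 12 months, goat-named entries only gave 0.01 for chi-miR-16b-5p, and summing by the first 18 bases gave −0.03 for miR-16-x and −0.18 for miR-15-y. None of these had passed, and the cause was not tested. Leaving out 1 library also turned values that had not passed. For 12 months against 1 month the ranges were −0.27 to 0.60 for chi-miR-497-5p, −0.23 to 0.39 for chi-miR-195-3p, −3.58 to 0.84 for miR-15-x, −1.46 to 1.06 for miR-195-x and −0.26 to 0.60 for miR-497-x. For 24 months against 12 months they were −0.26 to 0.35 for chi-miR-16a-5p, −0.16 to 0.29 for chi-miR-16b-5p, −0.20 to 0.31 for chi-miR-497-5p, −0.24 to 0.14 for chi-miR-15b-3p, −0.45 to 0.21 for chi-miR-16a-3p, −1.97 to 0.28 for miR-15-x and −0.12 to 1.43 for miR-15-y. For 24 months against 1 month they were −0.14 to 0.48 for chi-miR-497-5p, −0.03 to 0.79 for chi-miR-195-5p, −1.46 to 0.05 for miR-16-x and −0.98 to 1.53 for miR-195-x. Depth limits the entries with few counts, such as miR-15-y, miR-497-x and miR-497-y, and chi-miR-15a-3p was too low to test.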
